A study of Homo sapiens with 12 samples.

Results

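The transcripts of 10 genes of the NF-κB pathway were followed in all 12 RNA-seq libraries of the series. The genes were taken by symbol from a table of 62069 genes, in which each of the 10 symbols had 1 row. All 10 passed the filter on low counts and are among the 15284 genes tested. They are the 5 DNA-binding subunits NFKB1, NFKB2, REL, RELA and RELB, the classical inhibitors NFKBIA and NFKBIE, the nuclear IκB-like proteins NFKBIZ and BCL3, and the ubiquitin-editing enzyme TNFAIP3.

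NF-κB is a family of dimeric transcription factors that switch on inflammatory and survival genes. In resting cells, IκB proteins such as the product of NFKBIA hold the dimers in the cytoplasm. Cytokine and pattern receptors activate the IκB kinases, which mark the inhibitors for degradation and let the dimers enter the nucleus, while a second route works through processing of the NFKB2 product and RELB. Several of the genes described here are themselves known NF-κB targets, so that the pathway feeds back on its own components. In senescent fibroblasts NF-κB is known as a driver of the senescence-associated secretory phenotype (SASP). Counts of mRNA do not measure the degradation or nuclear entry of these proteins.

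The libraries came from IMR90 ER:RAS cells at passage 13, a human lung fibroblast line with an estrogen receptor and RAS fusion protein. Adding 4-hydroxytamoxifen (4OHT) turns the fusion on and triggers oncogene-induced senescence (OIS). There were 4 groups of 3 libraries. The vector group carried ER:RAS and a control vector and was not induced, and the vector/4OHT group was the same induced with 100 nM 4OHT. The shXPO7_3/4OHT and shXPO7_5/4OHT groups were induced in the same way and carried 1 of 2 short hairpin RNAs against XPO7, which encodes the nuclear transport receptor exportin 7. The labels place all 12 libraries at day 5. Every group is the same cell line, and all carry ER:RAS. Activation of RAS and exposure to 4OHT cannot be told apart in this design. Whether libraries of the same group are separate cultures is not given in the labels, and p-values here cover only the variation among libraries, part or all of which may be technical.

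The promoters of 8 of the 10 genes were read from RefSeq (build GRCh38.p14) as 13 windows from 250 bases before to 50 bases after an annotated start. RELB and NFKBIE had no entry. The windows were searched on both strands for the kappaB consensus, the sequence to which NF-κB dimers bind, and for the AP-1 site TGANTCA. A kappaB match was found in 9 of the 13 windows and in 7 of the 8 genes (all but RELA), against 11.3% of the 35116 windows in the whole table. No window of the 8 genes held an AP-1 match, against 7.71% of all windows. The 5 windows below are shown because they belong to genes whose transcripts differed between groups or, for NFKBIA, to the textbook inhibitor. They are written 5′ to 3′ on the gene's strand, and capitals mark kappaB matches. The NFKB1 window is the first of 2, chr4:102501109-102501408 (+), with a match that starts at position -49. The second NFKB1 window held no match. The NFKB2 window is the second of 3, chr10:102394328-102394627 (+), with overlapping matches at -107 and -106 and another at -78. The first NFKB2 window held no match and the third had matches at -176 and -21. The NFKBIZ window is the first of 2, chr3:101827740-101828039 (+), with a match at -223. The NFKBIA window is chr14:35404700-35404999 (-), with a match at -81. The TNFAIP3 window is chr6:137867009-137867308 (+), with matches at -67 and -55. A match is a string of letters and not a measured binding site.
NFKB1: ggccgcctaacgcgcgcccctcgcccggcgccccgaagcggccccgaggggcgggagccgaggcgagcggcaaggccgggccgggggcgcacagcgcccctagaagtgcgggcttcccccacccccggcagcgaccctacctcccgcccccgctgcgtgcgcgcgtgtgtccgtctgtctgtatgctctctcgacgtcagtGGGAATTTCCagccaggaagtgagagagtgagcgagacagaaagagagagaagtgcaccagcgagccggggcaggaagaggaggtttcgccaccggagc
NFKB2: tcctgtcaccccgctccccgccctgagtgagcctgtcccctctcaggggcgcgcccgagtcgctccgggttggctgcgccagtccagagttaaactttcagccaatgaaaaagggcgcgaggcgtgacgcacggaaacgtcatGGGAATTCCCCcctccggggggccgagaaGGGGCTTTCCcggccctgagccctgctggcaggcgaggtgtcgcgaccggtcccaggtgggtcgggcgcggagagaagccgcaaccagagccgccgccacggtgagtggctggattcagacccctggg
NFKBIZ: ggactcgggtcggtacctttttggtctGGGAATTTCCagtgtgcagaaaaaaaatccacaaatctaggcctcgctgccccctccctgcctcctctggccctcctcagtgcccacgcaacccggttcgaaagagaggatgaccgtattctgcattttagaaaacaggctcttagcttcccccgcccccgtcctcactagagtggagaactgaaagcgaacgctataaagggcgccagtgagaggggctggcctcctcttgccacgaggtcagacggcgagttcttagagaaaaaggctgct
NFKBIA: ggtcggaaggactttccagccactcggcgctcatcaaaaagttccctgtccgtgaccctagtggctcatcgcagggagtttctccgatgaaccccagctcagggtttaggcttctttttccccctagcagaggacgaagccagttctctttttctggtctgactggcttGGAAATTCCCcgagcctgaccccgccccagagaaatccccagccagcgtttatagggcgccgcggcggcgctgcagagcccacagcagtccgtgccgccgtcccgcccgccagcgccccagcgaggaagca
TNFAIP3: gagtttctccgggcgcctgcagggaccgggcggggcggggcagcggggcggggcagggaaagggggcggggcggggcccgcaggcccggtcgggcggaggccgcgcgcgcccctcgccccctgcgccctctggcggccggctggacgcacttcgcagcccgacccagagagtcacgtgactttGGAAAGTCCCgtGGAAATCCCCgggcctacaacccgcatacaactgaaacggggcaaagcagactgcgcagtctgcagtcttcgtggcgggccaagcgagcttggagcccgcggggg

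The libraries held 28534141 to 60397769 counts on genes. XPO7, the targeted gene, was at 126.8 to 143.8 CPM (counts scaled to library size) in the 3 vector/4OHT libraries, at 26.4 to 28.7 CPM with shXPO7_3 and at 50.8 to 54.0 CPM with shXPO7_5, in accord with the labels. All 10 fibroblast markers, such as COL1A1 and VIM, were at 10 CPM or more in every library, while the 8 leukocyte markers together reached at most 1.39 CPM, with CD3E at 0 throughout. The 5 epithelial markers together reached at most 1.58 CPM. The 5 endothelial markers together were at 2.83 to 3.77 CPM in vector and 8.44 to 10.4 CPM in vector/4OHT, carried by TIE1 and VWF, with PECAM1 and CDH5 at 0 in all libraries. The summed fibroblast markers were at 24440 to 28190 CPM in vector and 17160 to 18620 CPM in vector/4OHT. With shXPO7_3 they were at 17920 to 21720 CPM and with shXPO7_5 at 19450 to 22100 CPM, the latter above every vector/4OHT library. The summed endothelial markers were at 9.75 to 12.3 CPM with shXPO7_3 and at 9.66 to 13.8 CPM with shXPO7_5. The part of these markers in the results below was not tested. In bulk RNA, fewer cells of a type and less RNA per cell cannot be told apart. Of the shXPO7_5/4OHT libraries, B and T stood apart in base composition. The rank correlation across 14864 genes between the log ratio to the vector/4OHT mean and transcript GC content was 0.77 in B and 0.60 in T, against 0.11 in A. In shXPO7_3/4OHT it was 0.57 in T, -0.33 in A and -0.25 in B. The control libraries varied as well. In vector/4OHT, whose own mean is the reference, it was -0.175 in T, -0.20 in A and 0.31 in B. In vector it was 0.30 in T, 0.12 in A and -0.05 in C. Knockdown fold changes are therefore given below with and without a correction for the GC content and the length of transcripts, called the GC and length correction.

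To see how the NF-κB genes behaved in OIS, vector/4OHT was compared with vector. NFKBIZ rose 3.56-fold, RELB 1.68-fold, NFKB2 1.59-fold, and NFKB1 and NFKBIE 1.37-fold each, and TNFAIP3 fell to 0.753 of its level in vector. REL, RELA, NFKBIA and BCL3 did not pass the test. Thus 6 of 10 genes were called at an adjusted p under 0.05 (edgeR quasi-likelihood test, Benjamini-Hochberg over all genes tested), 5 higher and 1 lower. Of all genes tested, 50.9% were called, 24.8% higher and 26.1% lower, so the count for the 10 genes is near the background. The libraries of the 2 groups did not overlap in 9 of the 10 genes, against 63.2% of all genes tested. The median log2 fold change was 0.35 over the 10 genes and -0.01 over all genes tested. Below, the values of single libraries are CPM after TMM scaling, in the order T, A and C for vector and T, A and B for the other groups.

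NFKB1 (ENSG00000109320, chr4:102501329-102617302, + strand; gene positions are those of GENCODE 29 on GRCh38) encodes the precursor of the p50 subunit. It was at 41.8, 40.8 and 37.7 CPM in vector and at 54.98, 57.0 and 52.9 CPM in vector/4OHT. All induced libraries lay above all non-induced ones. Its log2 fold change was 0.45 ± 0.064 (SE, n = 3 per group; edgeR adjusted p = 8.56e-05). NFKB2 (ENSG00000077150, chr10:102394110-102402529, + strand) encodes the precursor of p52, the partner of RELB in the non-canonical route. It was at 39.5, 34.8 and 35.7 CPM in vector and at 58.7, 59.2 and 56.5 CPM in vector/4OHT. The gap between the groups was larger than the spread within either, with a log2 fold change of 0.665 ± 0.094 (edgeR adjusted p = 8.57e-05). RELB (ENSG00000104856, chr19:45001430-45038198, + strand), the transactivating partner of p52, was at 13.8, 13.7 and 12.3 CPM in vector and at 22.9, 22.1 and 21.9 CPM in vector/4OHT. Here too no library of one group reached the other, and the log2 fold change was 0.75 ± 0.13 (edgeR adjusted p = 0.000351).

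RELA (ENSG00000173039, chr11:65653596-65663094, - strand), the transactivating subunit of the canonical dimer, was at 82.7, 78.5 and 73.5 CPM in vector and at 79.9, 82.9 and 84.6 CPM in vector/4OHT. The groups overlapped, and the log2 fold change was 0.08 (95% confidence interval -0.14 to 0.29; edgeR adjusted p = 0.547). Its sign depended on the scaling, at -0.02 with upper-quartile factors, and with the GC and length correction it was 0.23 (edgeR adjusted p = 0.000554). An opposite-strand non-coding gene, AP001362.2, overlaps RELA exons. REL (ENSG00000162924, chr2:60881521-60931610, + strand) encodes c-Rel, a subunit known mainly from lymphoid cells. It was at 2.01, 1.797 and 2.41 CPM in vector and at 1.69, 1.38 and 1.51 CPM in vector/4OHT, 39 to 85 counts per library. The groups did not overlap, but the log2 fold change of -0.43 ± 0.17 did not pass the test (edgeR adjusted p = 0.0573). It did pass in 4 of 14 alternatives, among them without vector replicate A (-0.54, edgeR adjusted p = 0.0428). Without vector replicate C it was -0.30 (edgeR adjusted p = 0.203). REL shares exon sequence on its own strand with AC010733.2, which held 607 counts over the 12 libraries against 782 for REL, so the counts of REL are uncertain.

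Of the inhibitors, NFKBIZ (ENSG00000144802, chr3:101827991-101861022, + strand) had the largest fold change of the 10 genes. It encodes IκBζ, an inducible nuclear cofactor known to be needed for part of the secondary NF-κB response. It was at 7.76, 8.02 and 9.61 CPM in vector and at 31.8, 31.1 and 27.5 CPM in vector/4OHT, 1.83 ± 0.15 higher on the log2 scale (edgeR adjusted p = 7.59e-07). The lowest induced library was well above the highest non-induced one. BCL3 (ENSG00000069399, chr19:44747705-44760044, + strand), the other nuclear IκB-like protein here, binds p50 and p52 homodimers. Its values were 16.2, 17.1 and 14.3 CPM in vector and 13.1, 13.7 and 14.2 CPM in vector/4OHT. The groups were separated only narrowly, with a log2 fold change of -0.21 ± 0.11 that did not pass the test (edgeR adjusted p = 0.134) and was -0.03 after the GC and length correction. The annotated microRNA gene MIR8085 lies within BCL3 exons.

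NFKBIA (ENSG00000100906, chr14:35401511-35404749, - strand) encodes IκBα, the feedback inhibitor that returns nuclear dimers to the cytoplasm. It was at 42.4, 37.1 and 33.2 CPM in vector and at 45.1, 46.0 and 43.4 CPM in vector/4OHT. The induced libraries were all higher, but vector replicate T lay close to them. The log2 fold change of 0.26 ± 0.11 did not pass the test (edgeR adjusted p = 0.0733), and without vector replicate T it was 0.35 (edgeR adjusted p = 0.0244). Without vector replicate C it was 0.18 (edgeR adjusted p = 0.229), and with upper-quartile factors 0.15 (edgeR adjusted p = 0.355). NFKBIE (ENSG00000146232, chr6:44258166-44265788, - strand) encodes IκBε, a slower feedback inhibitor. It was at 14.7, 14.7 and 14.3 CPM in vector and at 18.6, 21.3 and 19.9 CPM in vector/4OHT. The vector libraries lay within 1 CPM of each other and below every induced library, and the log2 fold change was 0.45 ± 0.1 (edgeR adjusted p = 0.00237). TNFAIP3 (ENSG00000118503, chr6:137867188-137883312, + strand) encodes A20, which removes and adds ubiquitin chains on signalling proteins upstream of the IκB kinases. It was at 21.3, 19.5 and 19.8 CPM in vector and at 15.9, 15.8 and 13.9 CPM in vector/4OHT. It was the 1 gene of the 10 called lower, by 0.41 on the log2 scale (SE 0.083, edgeR adjusted p = 0.00136), and all induced libraries lay below all non-induced ones. The antisense gene AL357060.1 held 43 counts against 7057 for TNFAIP3. The 6 calls held in 14 of 14 alternatives each. With the GC and length correction REL, RELA and NFKBIA were called as well, 9 of 10 genes, where 63.7% of all genes were called.

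Levels were compared between genes as CPM per kilobase of the union of their exons. The order of genes below depends on this choice of length. The union is 5464 bases for RELA and 3242 for BCL3, while their longest transcripts have 3183 and 2038. For NFKBIE both lengths are 2581 bases. The order with the longest transcript as length is not given here. In vector the order from the highest was NFKBIA with a mean of 15.8, RELA with 14.3, NFKB2 with 8.18, NFKB1 with 6.41, NFKBIE with 5.64, BCL3 with 4.90, RELB with 4.37, TNFAIP3 with 4.00, NFKBIZ with 1.43 and REL with 0.157 CPM per kb. The libraries of NFKBIA and RELA overlapped, as did those of BCL3 and RELB and those of RELB and TNFAIP3, and the other neighbours in this order did not. In vector/4OHT NFKBIA had a mean of 18.9, RELA 15.1, NFKB2 12.96, NFKB1 8.79, NFKBIE 7.72, RELB 7.34, NFKBIZ 5.10, BCL3 4.22, TNFAIP3 3.01 and REL 0.116 CPM per kb. Here NFKBIE and RELB were the neighbours that overlapped. NFKBIZ thus stood below TNFAIP3 and BCL3 before induction and above both after it. REL was the lowest in both groups.

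The make-up of the subunit transcripts was computed within each library, which removes the scaling between libraries. RELA held 42.8% ± 0.34 (SD, n = 3) of the summed CPM per kb of the 5 subunits in vector and 34.1% ± 1.1 in vector/4OHT. NFKB2 held 24.5% ± 1.0 and 29.3% ± 0.48, and RELB 13.1% ± 0.43 and 16.6% ± 0.46. The shares of these 3 subunits did not overlap between the groups, and each had an exact two-sided permutation p of 0.1, the smallest that 3 against 3 libraries allow. NFKB1 held 19.2% ± 0.35 and 19.8% ± 0.52, which overlapped (exact permutation p = 0.2). For a ratio, the 5 genes other than the subunits were counted as inhibitors, although NFKBIZ encodes a nuclear cofactor and BCL3 another nuclear IκB-like protein. The ratio compares transcripts and does not measure how strongly NF-κB was inhibited. The summed CPM per kb of these 5 inhibitors was 0.951 ± 0.017 of that of the subunits in vector and 0.879 ± 0.018 in vector/4OHT (exact permutation p = 0.1). This last difference was -0.11 on the log2 scale and depended on how length was treated, at -0.01 when values were not divided by length.

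The rest of the pathway was described with 6 lists of 80 genes, of which 73 were tested. In OIS 29 rose and 12 fell. That is 41 of 73, near the 50.9% of all genes, but with more genes higher than lower. Of all genes, 24.8% were called higher and 26.1% lower. The lists were chosen with earlier results of these data known, so the counts and medians describe the lists and test nothing. Of the 23 targets tested, 18 were higher and 4 lower, with a median log2 fold change of 2.85. Among them IL1B, the inflammatory cytokine interleukin 1β, went from a mean of 0.257 CPM (29 counts in the 3 libraries) to 136.9 CPM, a log2 fold change of 8.99 ± 0.16. The neutrophil chemokine CXCL8 went from 2.25 to 457.0 CPM, and IL1A, interleukin 1α, from 0.202 (23 counts) to 30.7 CPM. Among the targets the adhesion molecule VCAM1 (log2 fold change -2.11 ± 0.2) and the pattern-recognition protein PTX3 (-0.67 ± 0.086) fell. The mitochondrial superoxide dismutase SOD2 fell as well (-0.23 ± 0.088, edgeR adjusted p = 0.0438), as did CD83, at a level below that set for naming genes. TNF was too low to be tested, as were the receptors IL1R2, TLR4 and TNFRSF11A. The kinase-list genes IKBKG and IKBKE and the negative regulator OTUD7B had 0 counts in all 12 libraries and were not tested either. Whether their RNA was absent or went uncounted was not tested.

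Each of the other 5 lists had members that rose and members that fell. Of 8 kinase genes tested, the IκB kinase subunit CHUK (log2 fold change 0.58 ± 0.23, edgeR adjusted p = 0.047) and the adaptor of TAK1, TAB3 (0.55 ± 0.18), rose. MAP3K14, the NF-κB-inducing kinase of the non-canonical route, fell from 9.77 ± 0.81 to 3.54 ± 0.16 CPM (SD, n = 3), -1.46 ± 0.17 on the log2 scale, while its downstream partners NFKB2 and RELB rose. Of 16 adaptors and ligases, IRAK2 (0.59 ± 0.097), TRAF3 (0.48 ± 0.076) and RIPK1 (0.23 ± 0.066) rose and TRAF5 (-1.18 ± 0.16) and IRAK4 (-0.76 ± 0.13) fell, as did the low TRAF1. TRAF3 is known to target the MAP3K14 protein for degradation. Of 12 negative regulators, ZC3H12A, a ribonuclease that degrades inflammatory mRNA, rose from 5.05 ± 0.42 to 22.3 ± 0.61 CPM (log2 fold change 2.14 ± 0.1), and the deubiquitinase OTULIN rose by 0.39 ± 0.072. CYLD, another deubiquitinase, fell by 0.26 (SE 0.1, edgeR adjusted p = 0.0446). Of 11 receptors, IL1RAP (0.69 ± 0.19), TNFRSF12A (0.62 ± 0.11) and LTBR (0.26 ± 0.091, edgeR adjusted p = 0.0346) rose. TNFRSF1B (-1.30 ± 0.11) fell, as did the low TLR3. Of 3 other IκB proteins, NFKBIB rose (0.28 ± 0.1, edgeR adjusted p = 0.0419) and NFKBID, which was low, fell. Median log2 fold changes were 0.26 for the kinases, -0.02 for adaptors and ligases, 0.10 for negative regulators, -0.23 for receptors and -0.26 for the other IκB proteins.

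**Figure D1:**
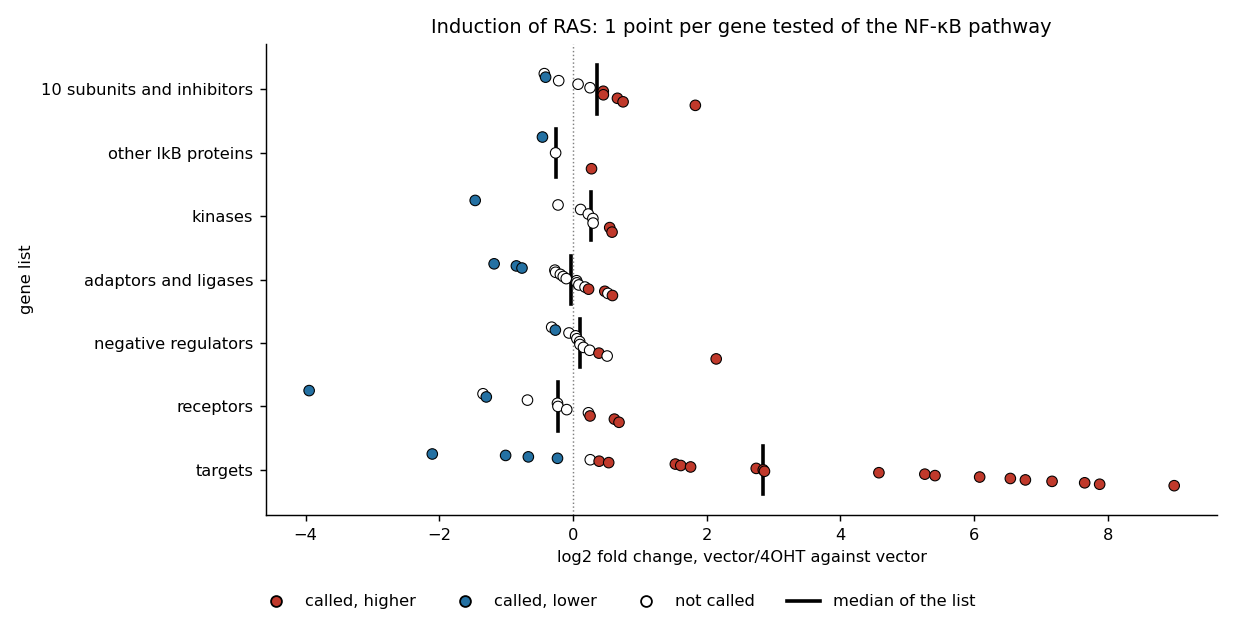
Log2 fold change of vector/4OHT against vector for the 10 genes and for 73 other genes tested of the pathway, 1 point per gene, by list. Filled points passed the test, and thick bars are list medians. The targets reach log2 fold changes of 8.99, while the 10 subunits and inhibitors lie between -0.43 and 1.83.

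To see whether depletion of XPO7 altered these transcripts in induced cells, each shRNA group was compared with vector/4OHT. None of the 10 genes passed the test with either shRNA. With shXPO7_3, 0 of 10 genes were called by edgeR, which called 0.124% of all genes, and 0 by DESeq2. DESeq2 called 88 genes, 0.612% of those to which it gave an adjusted p-value. An unadjusted edgeR p under 0.05 was seen in 0 of the 10 genes and in 6.41% of all genes. With shXPO7_5, 0 of 10 were called by edgeR, which called 0.589% of all genes, and 0 by DESeq2. Here DESeq2 called 426 genes, 3.63% of those to which it gave an adjusted p-value. An unadjusted edgeR p under 0.05 was seen in 5 of the 10 genes and in 21.6% of all genes. Both comparisons use the same 3 vector/4OHT libraries.

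With shXPO7_3 the log2 fold changes of the 10 genes lay between -0.265 and 0.28. NFKB1 was at 59.4, 58.6 and 57.6 CPM, against 52.9 to 57.0 CPM in vector/4OHT. Its libraries were all above those of vector/4OHT, and the log2 fold change was 0.09 (interval -0.05 to 0.23). REL also did not overlap, at 1.89, 1.99 and 1.72 CPM against 1.38 to 1.69 CPM, with the uncertainty noted above. Such separation was seen in 14.6% of all genes. NFKBIZ was at 21.8, 28.6 and 24.7 CPM against 27.5 to 31.8 CPM, which overlapped (log2 fold change -0.265, interval -0.58 to 0.05). The intervals for RELA (-0.21 to 0.22), NFKB2 (-0.26 to 0.145) and RELB (-0.24 to 0.31) give the changes that these libraries leave possible. For NFKBIA the interval was -0.21 to 0.275, for NFKBIE -0.15 to 0.28, for BCL3 -0.15 to 0.34 and for TNFAIP3 -0.32 to 0.04. The GC and length correction gave -0.25 for NFKBIZ, -0.13 for TNFAIP3, -0.08 for NFKB2, -0.02 for RELA, 0.02 for RELB and NFKBIA, 0.04 for NFKBIE, 0.08 for BCL3, 0.085 for NFKB1 and 0.29 for REL.

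With shXPO7_5 the log2 fold changes lay between -0.45 and 0.30. NFKBIZ was at 18.6, 26.97 and 20.6 CPM, each below the 27.5 to 31.8 CPM of vector/4OHT, although replicate A came near. Its log2 fold change was -0.45 (interval -0.76 to -0.135; edgeR adjusted p = 0.156). TNFAIP3 was at 13.2, 13.8 and 13.8 CPM against 13.9 to 15.9 CPM, without overlap (log2 fold change -0.16, interval -0.34 to 0.03). RELA was at 96.2, 86.1 and 105.2 CPM against 79.9 to 84.6 CPM, also without overlap (0.22, interval 0.002 to 0.43; edgeR adjusted p = 0.23). Of all genes, 26.8% did not overlap in this comparison. RELB was at 26.2, 22.7 and 33.4 CPM, BCL3 at 16.8, 14.2 and 19.3 CPM and NFKBIE at 22.8, 20.5 and 26.1 CPM. In these 3 genes replicate B, which stood apart in GC content, was the highest and A the lowest, and the A library fell within the range of vector/4OHT. The intervals were 0.03 to 0.57 for RELB, 0.045 to 0.54 for BCL3 and 0.001 to 0.43 for NFKBIE. For the remaining genes they were -0.09 to 0.19 for NFKB1, -0.10 to 0.31 for NFKB2, -0.47 to 0.32 for REL and -0.13 to 0.36 for NFKBIA.

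The GC content of the transcripts moved with these values. BCL3 (67.4% GC), RELB (65.4%), NFKBIE (61.0%) and RELA (57.1%) lie above the median gene (47.9%), and their log2 fold changes with shXPO7_5 went from 0.29, 0.30, 0.22 and 0.22 to 0.03, 0.05, 0.02 and 0.05 under the GC and length correction. NFKB2 (62.4% GC) went from 0.11 to -0.115, NFKBIA (53.1%) from 0.11 to 0.02 and NFKB1 (50.1%) from 0.05 to -0.01. NFKBIZ (46.2%) stayed at -0.41 (SE 0.13, edgeR adjusted p = 0.11) and TNFAIP3 (49.5%) at -0.20 (SE 0.082, edgeR adjusted p = 0.203). REL (38.7%) turned from -0.08 to 0.25. Across 14864 genes the rank correlation of the log2 fold change with GC content was 0.68 for shXPO7_5 and 0.11 for shXPO7_3.

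**Figure D2:**
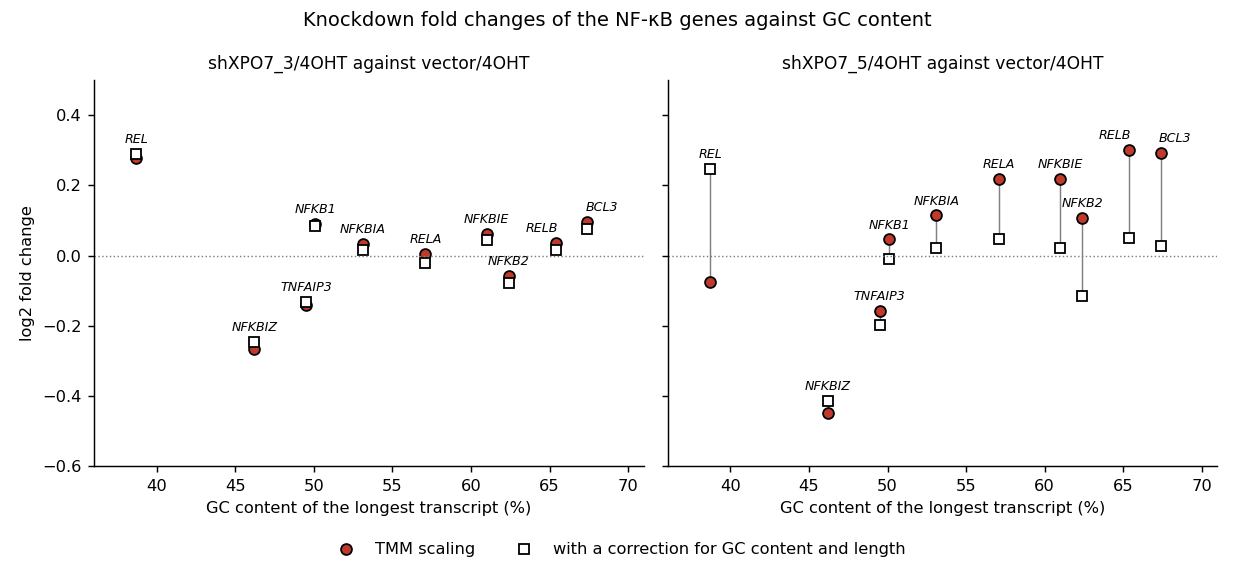
Log2 fold change of the 10 genes in each knockdown comparison (left shXPO7_3, right shXPO7_5) against the GC content of the longest transcript in percent, before (red circles) and after (white squares) a correction for GC content and length. With shXPO7_5 the GC-rich RELB, BCL3, NFKBIE and RELA drop to between 0.02 and 0.05, whereas NFKBIZ stays at -0.41.

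Leaving out shXPO7_5/4OHT replicate A brought 4 of the 10 genes past the threshold, with log2 fold changes of 0.42 for RELB, 0.40 for BCL3, 0.30 for NFKBIE and -0.62 for NFKBIZ. Their edgeR adjusted p-values were 0.0366, 0.0352, 0.0454 and 0.0254. In that setting 23% of all genes were called, and the 2 libraries left were those with GC correlations of 0.77 and 0.60. Leaving out shXPO7_5/4OHT replicate B instead brought the log2 fold changes down to 0.14 for RELB, 0.18 for BCL3 and 0.12 for NFKBIE, and NFKBIZ was at -0.40, with 0 of the 10 genes called. Relative to the vector/4OHT mean, NFKBIZ and TNFAIP3 were lower in 6 of 6 knockdown libraries and NFKB1 and BCL3 were higher in 6 of 6. Of all genes tested, 18.4% had all 6 knockdown libraries on the same side of that mean. These counts share the same 3 control libraries.

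**Figure D3:**
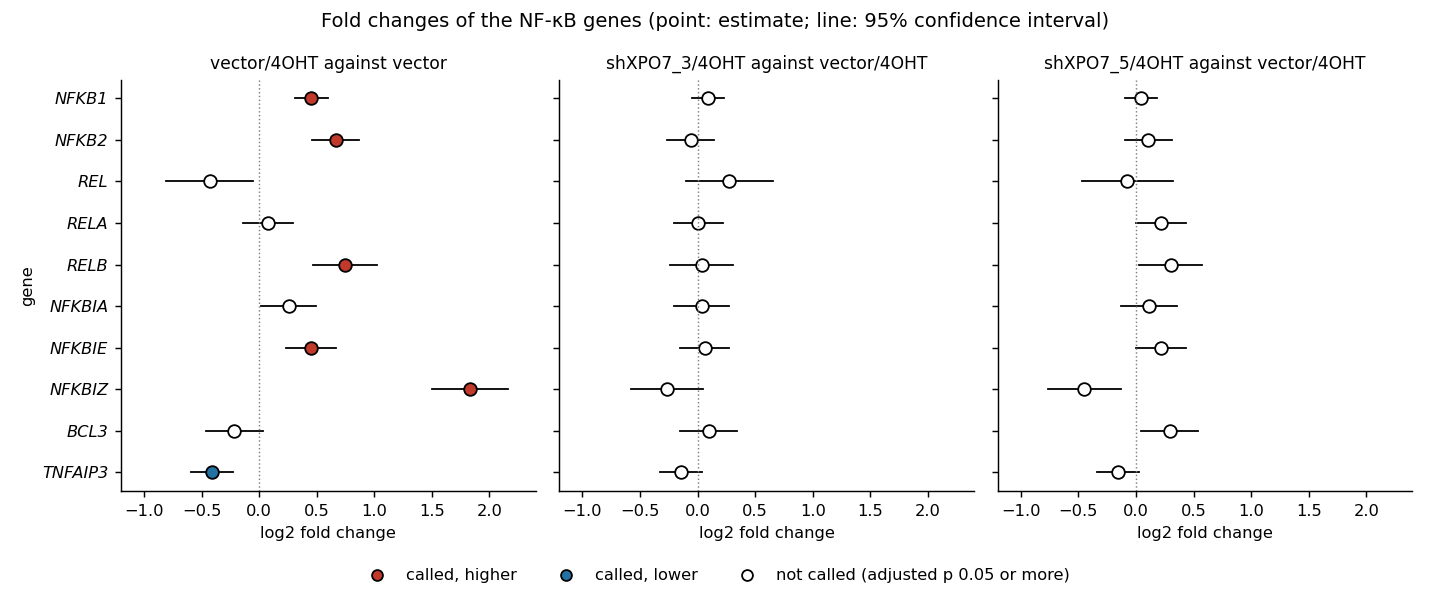
Log2 fold changes of the 10 genes (points) with 95% confidence intervals (lines) in OIS and with each shRNA. Red and blue points passed the test as higher and lower. In OIS 6 genes are filled, and in both knockdown panels all 10 are open.

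When the groups of the 2 shRNAs were compared directly, shXPO7_5/4OHT against shXPO7_3/4OHT, 0 of 10 genes were called by edgeR and by DESeq2, which called 0.0131% and 0.177% of all genes. An unadjusted edgeR p under 0.05 was seen in 0 of the 10 genes and in 11.9% of all genes. All 10 genes overlapped between the 2 groups, where 9.71% of all genes did not. The log2 differences ran from -0.35 for REL (interval -0.74 to 0.03) to 0.265 for RELB (interval -0.01 to 0.54), which was 0.03 after the GC and length correction. For NFKBIZ the difference was -0.18 (interval -0.50 to 0.13), and for TNFAIP3 it was -0.02 (interval -0.20 to 0.17). With the GC and length correction the 10 differences lay between -0.17 for NFKBIZ and 0.07 for RELA. XPO7 itself was higher with shXPO7_5 by 0.92 on the log2 scale.

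Within the subunits, the share of NFKB2 was 29.3% ± 0.48 in vector/4OHT, 27.9% ± 0.37 with shXPO7_3 and 28.1% ± 0.73 with shXPO7_5. Neither knockdown group overlapped with vector/4OHT (exact permutation p = 0.1 each, the smallest possible). RELA took 34.1% ± 1.1, 33.9% ± 1.7 and 35.3% ± 0.13, which overlapped. The ratio of inhibitors to subunits was 0.879 ± 0.018 in vector/4OHT, 0.873 ± 0.039 with shXPO7_3 (exact permutation p = 0.9) and 0.827 ± 0.024 with shXPO7_5 (exact permutation p = 0.1, without overlap). The last difference was -0.09 on the log2 scale, and -0.147 when values were not divided by length. These shares and ratios were not corrected for GC content.

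Of the 73 other pathway genes tested, 0 were called with shXPO7_3 by edgeR and by DESeq2, and 5 had an unadjusted edgeR p under 0.05, near the 6.41% of all genes that did. With shXPO7_5 the 1 gene called was PTGS2, which encodes the prostaglandin-forming enzyme cyclooxygenase 2, where 0.589% of all genes were called. An unadjusted edgeR p under 0.05 was seen in 25 of the 73 and in 21.6% of all genes. PTGS2 was at 37.8 to 46.2 CPM in vector/4OHT, 42.1 to 48.6 CPM with shXPO7_3 and 20.5 to 28.1 CPM with shXPO7_5 (log2 fold change -0.83 ± 0.12, edgeR adjusted p = 0.0132). It was lower with shXPO7_5 than with shXPO7_3 as well (-0.95 ± 0.12, edgeR adjusted p = 0.0246). The GC and length correction moved these to -0.47 ± 0.086 (edgeR adjusted p = 0.0137) and -0.62 ± 0.086 (edgeR adjusted p = 0.0164). The call with shXPO7_5 was lost without vector/4OHT replicate T (-0.80, edgeR adjusted p = 0.0834), vector/4OHT replicate A (-0.77, edgeR adjusted p = 0.0769), shXPO7_5/4OHT replicate T (-0.82, edgeR adjusted p = 0.0856) or shXPO7_5/4OHT replicate B (-0.72, edgeR adjusted p = 0.053). That between the shRNAs was lost without shXPO7_3/4OHT replicate A (-0.915, edgeR adjusted p = 0.207) or B (-0.91, edgeR adjusted p = 0.261) and without shXPO7_5/4OHT replicate T (-0.93, edgeR adjusted p = 0.297) or B (-0.83, edgeR adjusted p = 0.132). With 2 groups only both calls were lost as well (edgeR adjusted p = 0.0779 and 0.533). Calls over all genes fell in these settings too. With shXPO7_5 they went from 90 to 2 or 7 in these leave-outs and to 10 with 2 groups only. Between the shRNAs they went from 2 to 1 and to 0.

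NFKBIZ was the 1 gene of the 10 with a log2 fold change of at least 1 in OIS. Closeness to it over the 12 libraries was the root mean square difference of log2 CPM less the vector mean. Among 10685 genes compared, the closest genes with a symbol were POC1B (0.122) and GK (0.126). Genes known only by an identifier were among the 10685 but were passed over. The log2 fold changes of POC1B and GK in OIS were 1.78 and 1.67. That they are near the 1.83 of NFKBIZ follows from how the genes were picked. POC1B encodes a centriole protein and GK glycerol kinase.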

How the data were processed

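RNA was measured by stranded mRNA sequencing in 12 libraries of IMR90 ER:RAS cells (4 groups of 3, from the sample labels; the name vector comes from the study). The authors deposited unnormalized counts of reads per gene. Per the submitters' processing notes, the tools were TopHat2 2.0.11, featureCounts 1.18.0 and CASAVA 1.8.4, with GRCh37 (hg19) as build. Not given in the sources used here were the annotation, the strand setting and how multi-mapping reads were counted. The 92 ERCC rows were 0 and left out. Symbols were assigned to 50409 of 62069 identifiers (99.49% of counts) from a name table and GENCODE 29.

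Counts were analysed with edgeR 4.0.16 in R 4.3.3: filterByExpr (15284 genes), TMM, and a quasi-likelihood fit to all 12 libraries with the 4 groups, Benjamini-Hochberg adjusted over all genes tested with a threshold of 0.05. SEs are the log2 fold change over the root of its F, and intervals are 95%. Levels between genes are CPM per kb of the union of GENCODE 29 exons (GRCh38), matched by Ensembl identifier. Shares and ratios were tested by exact two-sided permutation. Alternatives were other scaling factors and filters, the replicate letter as a block, 2 groups only, each library left out, DESeq2 1.42.0, and a per-library offset for GC content and length (splines, 5 degrees of freedom, 97.3% of genes). Scripts were tested on simulated data. All 10 members are named, and of each further list up to 3 called genes each way whose average log2 CPM reached 2; called genes below that level were named after their values were seen. Members and lists were chosen with earlier results of these data known.

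Same-letter libraries did not deviate together in every pair (correlations -0.23 to 0.59). The highest correlation was between replicates T of vector and shXPO7_3/4OHT, and different-letter pairs reached 0.51. Whether a letter marks a batch is not given in the labels and is not settled by these values. Outside the replicate block, letters were used only to name libraries.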

Additional observations from a re-analysis of the deposited data

Results flagged for a closer look

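PTGS2 differed between the 2 shRNAs. Its level with shXPO7_5 minus that with shXPO7_3 was -0.947 on the log2 scale (edgeR adjusted p = 0.0246), while the other 72 pathway genes tested and the 10 subunits and inhibitors did not pass this test. The difference was -0.617 with the GC and length correction. With 1 library left out it ran from -1.072 to -0.834, and the call was lost without shXPO7_3/4OHT replicate A or B and without shXPO7_5/4OHT replicate T or B. It was also lost with 2 groups only (edgeR adjusted p = 0.533). Of all genes, 2 were called in the main test, 1 in each of those leave-outs and 0 with 2 groups only.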

How the results depend on the processing

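Of 560 values of the 10 genes recomputed under alternatives, 528 kept their direction and side of the threshold, 12 gained a call, 0 lost one and 20 changed sign. None of the 20 was a called value. In OIS the sign of RELA turned with upper-quartile factors (-0.0235), a scaling that moved the median of all genes to -0.105. With shXPO7_3, RELA turned without a filter (-0.00322), under the replicate block (-0.000229) and with the GC and length correction (-0.0212). With that correction shXPO7_5 turned NFKB1 (-0.00962), NFKB2 (-0.115) and REL (0.246), and the direct comparison turned NFKB2 (-0.0369), NFKBIE (-0.0236) and BCL3 (-0.0498). Upper-quartile factors turned NFKB1 (0.00276) and TNFAIP3 (0.0337) in the direct comparison. With 1 library left out, values ran from -0.0919 to 0.092 for RELA, -0.0463 to 0.09 for RELB and -0.0739 to 0.099 for NFKBIA with shXPO7_3, from -0.263 to 0.0473 for REL with shXPO7_5, and from -0.064 to 0.0329 for TNFAIP3 in the direct comparison. With shXPO7_5 between 0 and 4 of the 10 genes were called with 1 library left out, the 4 without shXPO7_5/4OHT replicate A.

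Calls among the 73 other pathway genes changed in the knockdown comparisons. With shXPO7_3 the 0 became 4 with the GC and length correction (TOLLIP, ICAM1, IRF1 and IER3). With shXPO7_5 the 1 became 2 with RLE factors, 6 without a filter and 2 with 1 CPM in at least 6 libraries. It became 0 with 2 groups only, 6 with DESeq2 and 5 with the correction (PTGS2, TOLLIP, ICAM1, IL1R1 and IRF1). With 1 library left out it was between 0 and 32 (32 without shXPO7_5/4OHT replicate A). With the correction IRF1 was called with both shRNAs (log2 fold change 0.32 with shXPO7_3 and 0.34 with shXPO7_5). So were ICAM1 (-0.24 and -0.245) and TOLLIP (-0.25 and -0.27). The correction called 2.17% and 3.13% of all genes. Both comparisons share the vector/4OHT libraries, and in the main fit IRF1, ICAM1 and TOLLIP did not pass with either shRNA. In the direct comparison the 1 became 0 with 2 groups only, 2 with DESeq2 and 2 with the correction, and 0 to 1 with 1 library left out. Under the replicate block 6 of the 10 genes were called in OIS and 0 in each knockdown comparison, as without it, and 4 of the pathway genes with shXPO7_5; not every library correlated best with its own letter. The block also brought REL in OIS from -0.429 to -0.258 (edgeR adjusted p = 0.316). Over all genes, calls with shXPO7_3 were 19 by edgeR, 88 by DESeq2 and 332 with the correction, and with shXPO7_5 90, 426 and 478. The log2 ratio of inhibitors to subunits in OIS was -0.074 with the longest transcript as length and -0.008 with no division by length, and with shXPO7_5 -0.147 with no division. The causes were not tested. With 3 libraries per group the exact tests cannot go under 0.1.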
